A study of Mus musculus with 9 samples.

Results

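The respiratory chain is described here by the transcripts of its subunits, those encoded in mitochondrial DNA and those encoded in the nucleus. Members were chosen by symbol alone, from the families mt-Nd, mt-Co, mt-Cytb, mt-Atp, Nduf, Sdh, Uqcr, Cox and Atp5, leaving out names that mark pseudogenes or clones and Ndufa4l2. The choice gave 102 of the 54513 gene symbols in the authors' table, 13 mitochondrial and 89 nuclear. Of these, 99 had enough counts to be tested among 18690 genes, all 13 mitochondrial members and 86 of the nuclear ones. Cox8c, Ndufa11b and Ndufb11b had 0 counts in every library.

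The libraries were made from oligo(dT)-captured RNA of 9 mice, in tissue that the labels give as hippocampal. Every mouse received a high-fat diet for 12 weeks. In the Trp group the feed also contained 0.5% added tryptophan by weight, in the IPA group mice were gavaged each day with indole-3-propionic acid at 100 mg/kg, and the HFD group had the high-fat diet with neither. Each group held 3 mice. Strain, age and sex are not in the labels, and no group on ordinary feed was among the libraries. The study is concerned with cognition and the blood-brain barrier on a high-fat diet, and the labels state no question about mitochondria. In the authors' table the columns of Trp, IPA and HFD carry the codes HOB, HEB and WTB, matched to the samples in the labels without explanation. Group names here follow the labels.

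Libraries held 40621084 to 50938746 counts. The 10 hippocampal neuron markers were all detected. Lct ranged from 0.225 to 8.96 CPM (counts scaled to library size, here adjusted by TMM) and Dsp from 0.182 to 8.40 CPM. Both are examples of low values and do not stand for the list, which is read here by its mean over all 10. The mean log2 CPM of the 10 markers was 2.79 to 4.53, while that of 10 striatal neuron markers was 5.45 to 7.68. The striatal mean was the higher of both in each of the 9 libraries. The markers thus go against the tissue label as a full description, and the libraries may hold striatum, in part or in place of hippocampus. These means cannot be read as shares of tissue. HFD 3 had the lowest striatal value and the highest blood and oligodendrocyte values, 6.68 and 8.74 on the log2 CPM scale. In the other libraries these were 4.51 to 5.73 and 7.80 to 8.18. In bulk tissue, fewer cells of a type and less RNA per cell cannot be told apart.

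Oxidative phosphorylation couples electron transfer from NADH and succinate to ATP synthesis in the inner mitochondrial membrane. Complexes I, III and IV pump protons and are built from subunits of both genomes, complex II is entirely nuclear encoded, and complex V, the ATP synthase, uses the proton gradient. The mitochondrial messages are cut from long polycistronic transcripts, and most carry short poly(A) tails by which oligo(dT) beads capture them. Neurons depend on this pathway for the ion pumping that follows synaptic activity. By complex, the members were 7 mitochondrial and 40 nuclear for complex I, 4 nuclear for complex II, 1 and 8 for complex III, 3 and 20 for complex IV, and 2 and 17 for complex V.

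Several mitochondrial genes have near-identical copies in nuclear DNA, which bears on every mitochondrial value below. In the GENCODE M21 transcripts, 7 of the 13 genes had an annotated pseudogene on chromosome 1 of at least 99.71% identity over the aligned bases. The starts of 2 genes, at positions from both the authors' table and GENCODE M21 (GRCm38), are printed here with those of their copies to show how alike they are. The capital marks the only base that differs within the printed stretch. mt-Nd3 (chrM:9459-9538 of the + strand) encodes a complex I subunit, and mt-Co2 (chrM:7013-7092 of the + strand) the copper-binding subunit of complex IV.
mt-Nd3: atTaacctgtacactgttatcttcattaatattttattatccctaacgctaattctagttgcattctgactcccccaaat
Gm28438: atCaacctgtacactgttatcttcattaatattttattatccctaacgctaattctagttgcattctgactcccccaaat
mt-Co2: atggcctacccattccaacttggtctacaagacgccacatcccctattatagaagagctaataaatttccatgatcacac
Gm28661: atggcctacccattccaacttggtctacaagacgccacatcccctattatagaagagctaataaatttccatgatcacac

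The counts of such copies followed those of the mitochondrial gene. Gm28661 held 98.2% to 99.6% of the mt-Co2 counts by library, and Gm28438 held 89.1% to 93.5% of the mt-Nd3 counts. The copies of mt-Atp6, mt-Co3 and mt-Nd4l matched over nearly the whole gene at 100% identity, and held 103.8%, 99.6% and 99.6% of its counts over all libraries. The copies of mt-Co1 and mt-Nd4 cover only part of the gene and held 13.5% and 29.2%. mt-Nd1, mt-Nd2, mt-Nd5, mt-Nd6, mt-Cytb and mt-Atp8 had no such copy. The table does not settle whether reads that match both places were divided or counted at each. Levels of those 7 messages may therefore be understated by up to the share of their copy, while a difference between groups is affected only where that share moves.

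Neighbouring mitochondrial genes also share bases, shown here because mt-Nd4l and mt-Nd5 had the largest log2 fold changes among the mitochondrial messages for IPA against HFD. The capitals mark the shared stretch, 7 bases between mt-Nd4l (chrM:9877-10173) and mt-Nd4 (chrM:10167-11544) on the same strand. mt-Nd5 (chrM:11742-13565, + strand) and mt-Nd6 (chrM:13552-14070, - strand) are transcribed towards each other and overlap by 14 bases. The library protocol describes no strand marking, so reads there cannot be told apart. Nor can reads of mt-Nd6, the only mitochondrial member on the - strand, be told from RNA of the opposite strand along its length. The part of such RNA in the mt-Nd6 counts was not tested. mt-Atp8 and mt-Atp6 overlap by 43 bases in the same way as mt-Nd4l and mt-Nd4.
mt-Nd4l, last 40 bases: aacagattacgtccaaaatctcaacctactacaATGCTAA
mt-Nd4, first 40 bases: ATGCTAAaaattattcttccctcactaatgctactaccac
mt-Nd5, last 40 bases: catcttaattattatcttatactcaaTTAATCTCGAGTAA
mt-Nd6, last 40 bases: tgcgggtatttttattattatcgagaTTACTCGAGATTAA

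The 13 mitochondrial messages took a far larger part of each library than the 89 nuclear members. In the order of library numbers, they made up 9.12%, 7.90% and 6.91% of counts in Trp, 10.3%, 8.43% and 8.87% in IPA, and 7.77%, 8.49% and 9.81% in HFD. The 3 groups overlapped, with the highest value in IPA 1 and the lowest in Trp 3. The group means were 7.98% ± 1.10 in Trp, 9.20% ± 0.99 in IPA and 8.69% ± 1.03 in HFD (SD, n = 3 each). The nuclear members made up 1.26%, 1.24% and 1.37% in Trp, 1.17%, 1.24% and 1.19% in IPA, and 1.29%, 1.16% and 1.27% in HFD.

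The mitochondrial set thus outweighed the nuclear set in counts by 7.24, 6.39 and 5.04 times in Trp, 8.79, 6.82 and 7.42 times in IPA, and 6.02, 7.32 and 7.70 times in HFD. Trp 3, which had the lowest ratio, also had the lowest mitochondrial and the highest nuclear share. On the log2 scale the mean ratio in Trp minus that in HFD was -0.18, and that in IPA minus that in HFD was 0.13. The spread between libraries of a group was 0.22. Between Trp and IPA the difference was -0.31, but it came to -0.17 without Trp 3 and -0.21 without IPA 1. Against HFD, the Trp difference was -0.04 without Trp 3, and the IPA difference was 0.03 without IPA 1 and 0.02 without HFD 1. No test was run on these ratios, since they are scores over chosen genes.

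**Figure D1:**
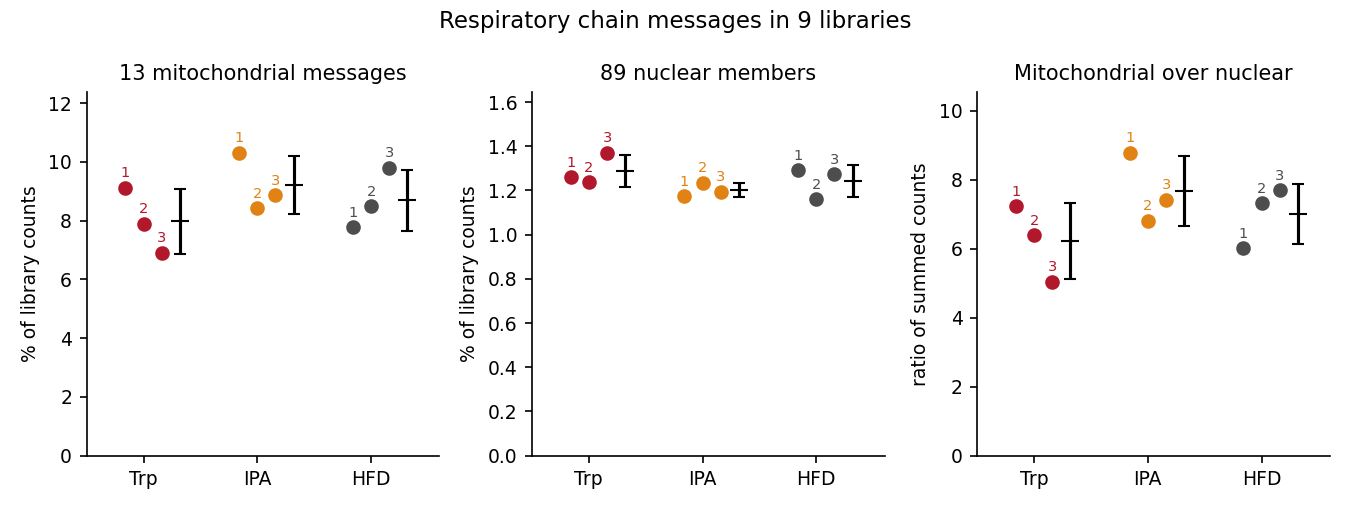
Share of library counts in the 13 mitochondrial messages (left) and the 89 nuclear members (middle), and the ratio of both sums (right), in each library of the Trp, IPA and HFD groups. Points are single libraries with their number, and black bars are the mean and SD of 3. The groups overlap in the left and right panels. In the middle panel every Trp library (1.237% and above) lies narrowly above every IPA library (1.236% and below), and both overlap HFD. The ratio is lowest in Trp 3 (5.04) and highest in IPA 1 (8.79).

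Levels compared between genes are given per length, as the authors' FPKM averaged over 9 libraries. The highest mitochondrial message was mt-Co1, the catalytic subunit of complex IV, at 17452 FPKM. It was followed by mt-Co3 (9243 FPKM), mt-Atp6 (9156 FPKM, the proton channel of the ATP synthase), mt-Cytb (7955 FPKM, of complex III), mt-Co2 (7217 FPKM), mt-Nd1 (7179 FPKM) and mt-Atp8 (6581 FPKM). mt-Co1 lay above all others in every library, and from mt-Co3 to mt-Atp8 the ranges over libraries overlapped between neighbours. The other complex I messages were lower, from mt-Nd4 at 4197 FPKM and mt-Nd2 at 3950 FPKM to mt-Nd6 (2185 FPKM), mt-Nd3 (1797 FPKM), mt-Nd5 (1725 FPKM) and mt-Nd4l (1401 FPKM). Between mt-Nd2 (at least 3087 FPKM) and mt-Nd6 (at most 3003 FPKM) the ranges did not overlap. Among the last 4, neighbours in this order overlapped, while mt-Nd6 (at least 1711 FPKM) lay just above mt-Nd4l (at most 1706 FPKM). In the nuclear set the median FPKM per complex was 79.3 for complex I, 76.0 for II, 121 for III, 161 for IV and 200 for V. Genes with a near-identical copy share the limit on levels described above, and the order given is that of the authors' FPKM. If reads were divided, it could change. The copies of mt-Nd4l and mt-Nd3 held 99.6% and 92.0% of their counts, while mt-Nd6 and mt-Nd5 have no such copy. The first pair could then lie above the second.

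In each library most mitochondrial messages were high or low together. Across the 9 libraries a mitochondrial member ranged over a median of 0.77 on the log2 scale (0.50 to 0.86), against 0.36 for the 78 nuclear members with at least 10 FPKM (0.07 to 0.87). IPA 1 was the highest library for 11 of the 13 mitochondrial members, and Trp 3 the lowest for 10. For nuclear members the extremes were elsewhere, with Trp 3 highest for 29 of all 86 tested and HFD 2 lowest for 30. The 2 mitochondrial ribosomal RNAs took 0.916%, 0.798% and 0.807% of counts in Trp, 1.19%, 0.916% and 0.933% in IPA, and 0.760%, 0.883% and 1.36% in HFD. They were highest in HFD 3, the library that stood apart in its markers.

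The comparison of Trp with HFD asks which respiratory chain messages differed where tryptophan was added to the diet. No member passed edgeR's quasi-likelihood test at a Benjamini-Hochberg adjusted p under 0.05, a rule that called 0.342% of all genes. Of the 13 mitochondrial messages 11 had a log2 fold change below 0, with a median of -0.14 against -0.002 for all genes, and none had an unadjusted p under 0.05. That median was -0.02 without HFD 3, -0.05 without Trp 3 and -0.29 without Trp 1. Of the 86 nuclear members 44 lay above 0 and 42 below, with a median of 0.01. At an unadjusted p under 0.05 there were 5 higher and 3 lower among the nuclear members, where 11.3% of all genes met that limit in either direction. Groups did not overlap for 8 nuclear members that were higher and 3 that were lower, against 8.06% and 7.43% of all genes.

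In the comparison of IPA with HFD, which concerns the bacterial tryptophan product, no member passed either, where the adjusted limit called 0.00535% of all genes. Here 11 of the 13 mitochondrial messages lay above 0, with a median log2 fold change of 0.14 against -0.01 for all genes. It was 0.03 without IPA 1, 0.08 without HFD 1, 0.28 without HFD 3 and 0.39 with the striatal marker mean as a covariate. At an unadjusted p under 0.05, met by 10.4% of all genes, 2 mitochondrial messages were higher and none lower. Among nuclear members, 35 lay above 0 and 51 below, with a median of -0.03, and 2 were higher and 6 lower at that limit. Groups did not overlap for 2 mitochondrial and 3 nuclear members that were higher and for 9 nuclear members that were lower, against 7.19% and 8.01% of all genes.

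Both comparisons use the same HFD libraries, so the contrast of Trp with IPA was fitted as the test of their difference. No member passed, and the adjusted limit called 0% of all genes. All 13 mitochondrial messages lay below 0, with a median log2 fold change of -0.29 against 0.01 for all genes, while 67 of 86 nuclear members lay above 0, with a median of 0.06. The mitochondrial median was -0.17 without Trp 3 or without IPA 1, and -0.45 without Trp 1. The mitochondrial messages share precursors and rise or fall with 1 library, so this count is not 13 separate results. At an unadjusted p under 0.05, met by 4.49% of all genes, mt-Nd4l (-0.37), mt-Nd4 (-0.36), mt-Cytb (-0.28) and the nuclear Ndufs6b were lower, and no member was higher. Groups did not overlap for 5 nuclear members that were higher, and for 2 nuclear members and 2 mitochondrial messages that were lower. The shares of all genes were 5.61% and 5.55%.

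With DESeq2 the adjusted limit called 1.78% of genes in the comparison of Trp with HFD, 0.983% in that of IPA with HFD and 0.0736% in that of Trp with IPA. A single member was among them, Uqcrc2 for Trp against HFD (adjusted p = 0.0468). The authors tested 95 members in their deposited table and called none in either comparison with HFD. Their smallest q for Trp was 0.101, for Uqcrc2. In IPA the authors' deposited table gives mt-Nd4l a log2 fold change of 0.45 with q = 0.0128 and mt-Nd5 0.44 with q = 0.0166, both short of the 2-fold change that all their called genes exceeded.

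**Figure D2:**
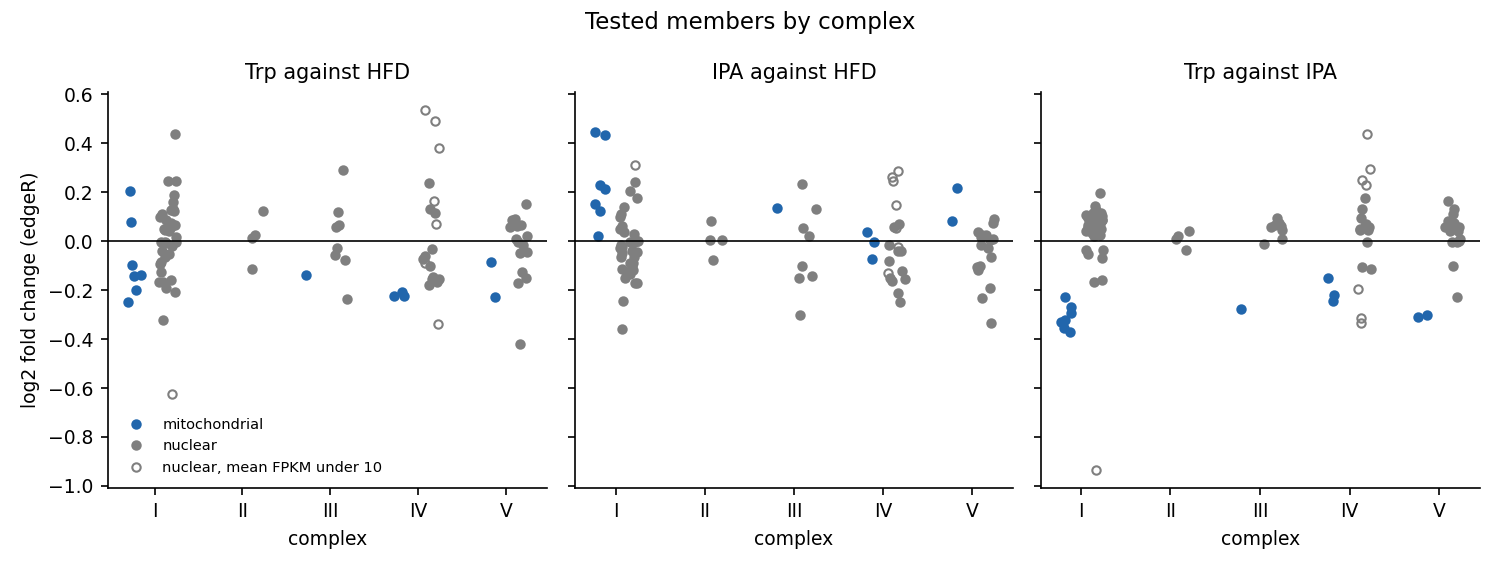
Log2 fold change (edgeR) of each tested member by complex, for the 3 comparisons (Trp and IPA each against HFD, then Trp against IPA), with mitochondrial members in blue, nuclear ones in grey and open points for nuclear members under 10 FPKM. The mitochondrial points lie mostly below 0 for Trp against HFD, mostly above 0 for IPA against HFD and all below 0 for Trp against IPA, while the nuclear points centre near 0.

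mt-Nd5, the largest mitochondrial subunit of complex I and part of its proton-pumping arm, had the smallest unadjusted p among members for IPA against HFD. Its CPM were 4003, 3499 and 2827 in Trp, 4257, 3705 and 4148 in IPA, and 2651, 3023 and 3284 in HFD. All IPA libraries were above all HFD libraries, and the Trp group overlapped both. For IPA against HFD the log2 fold change came to 0.43 with an SE of 0.13, a 95% interval of 0.16 to 0.71 and an edgeR adjusted p of 0.322. For Trp against HFD it was 0.21 (SE 0.13, adjusted p = 0.597 by edgeR).

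mt-Nd4l, a small membrane subunit of complex I, had 513, 432 and 339 CPM in Trp, 556, 526 and 576 CPM in IPA, and 361, 394 and 460 CPM in HFD. The IPA libraries were above every library of the other groups. For IPA against HFD the log2 fold change came to 0.45 with an SE of 0.14, a 95% interval of 0.15 to 0.75 and an edgeR adjusted p of 0.329. For Trp against HFD it was 0.08 (SE 0.14). Its copy Gm10222 held 98.4% to 100.3% of its counts in every library.

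The other mitochondrial messages of complex I differed less than mt-Nd5 and mt-Nd4l for IPA against HFD, but not for Trp against HFD. For IPA against HFD the log2 fold change was 0.21 for mt-Nd4, 0.23 for mt-Nd6 and 0.02 for mt-Nd3, with SEs of 0.14, 0.18 and 0.25. For Trp against HFD these were -0.14, -0.10 and -0.25. mt-Nd1 and mt-Nd2, also of the membrane arm, were at -0.20 and -0.14 for Trp and at 0.12 and 0.15 for IPA. The complex IV core was close to HFD in IPA, with log2 fold changes of 0.04 for mt-Co1, -0.003 for mt-Co2 and -0.07 for mt-Co3, and had -0.21, -0.22 and -0.22 in Trp. mt-Cytb of complex III had -0.14 in Trp and 0.14 in IPA, and the ATP synthase messages mt-Atp6 and mt-Atp8 had -0.23 and -0.08 in Trp and 0.08 and 0.22 in IPA. mt-Co1 had 31250, 26641 and 22761 CPM in Trp, 36672, 28916 and 30002 CPM in IPA, and 26752, 32115 and 34350 CPM in HFD, with all groups overlapping.

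**Figure D3:**
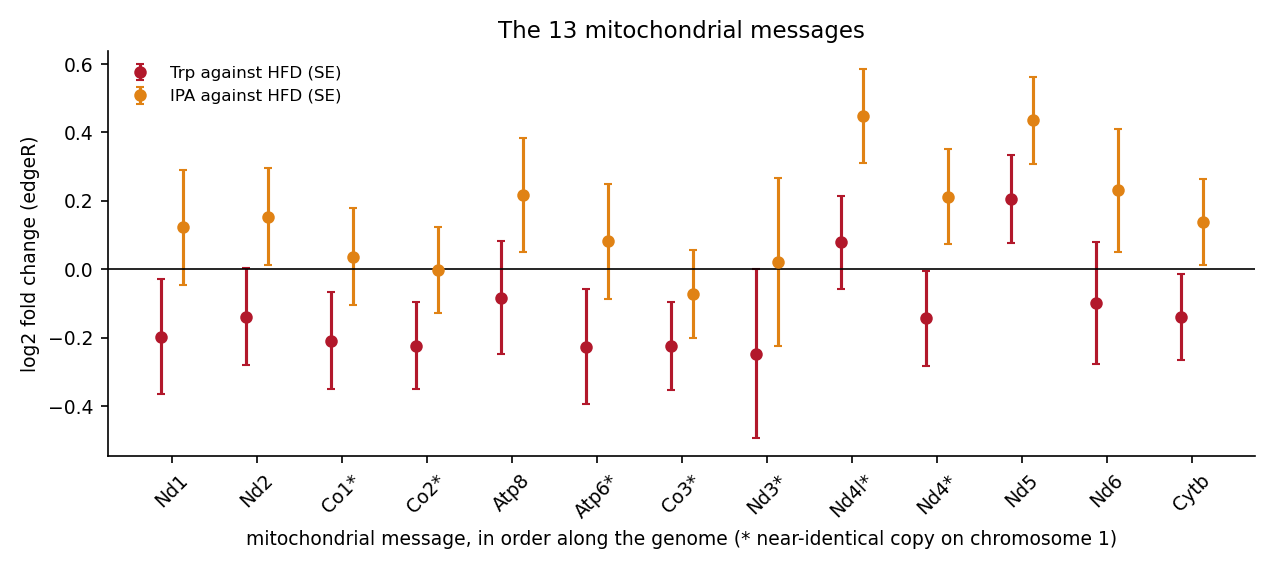
Log2 fold change with its SE (edgeR) of the 13 mitochondrial messages in their order along the genome, for Trp against HFD (red) and IPA against HFD (orange). Stars mark messages with a near-identical copy on chromosome 1. mt-Nd4l and mt-Nd5 are the highest points in both comparisons, at 0.45 and 0.43 for IPA and 0.08 and 0.21 for Trp.

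The make-up of the mitochondrial pool was examined next, since a share within a library needs no scaling between libraries. These shares were described after the values above were known and carry no test. mt-Nd5 made up 4.42%, 4.55% and 4.25% of the counts of the 13 messages in Trp, 3.97%, 4.39% and 4.65% in IPA, and 3.44%, 3.50% and 3.27% in HFD. Every Trp and IPA library was above every HFD library. mt-Nd4l made up 0.567%, 0.561% and 0.509% in Trp, 0.519%, 0.623% and 0.645% in IPA, and 0.468%, 0.456% and 0.458% in HFD. It showed the same order, with no overlap between HFD and the other groups.

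A message of complex IV ran the other way in IPA. mt-Co3 made up 9.18%, 9.10% and 10.2% in Trp, 8.83%, 8.62% and 8.72% in IPA, and 9.77%, 10.001% and 9.57% in HFD. The IPA values lay below both other groups, and those of Trp overlapped HFD. In all, 4 of the 13 shares were higher without overlap in IPA than in HFD (mt-Nd5, mt-Nd4l, mt-Nd4 and mt-Atp8), 2 were lower (mt-Co2 and mt-Co3) and 7 overlapped. For Trp against HFD 2 were higher, none was lower and 11 overlapped. By CPM, a different measure, 7.19% of all genes were higher and 8.01% lower without overlap for IPA against HFD. The CPM rates for Trp against HFD were 8.06% and 7.43%. Shares of 1 pool depend on each other, because a rise of 1 message lowers the rest.

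The order was not the same against every single message. The counts of mt-Nd5 over those of mt-Cytb, the next protein gene on the same strand and without a chromosome 1 copy, were 0.379, 0.379 and 0.371 in Trp, 0.350, 0.362 and 0.382 in IPA, and 0.283, 0.311 and 0.295 in HFD, with HFD below both other groups. Over mt-Nd4, its neighbour upstream, they were 0.617, 0.598 and 0.595 in Trp, 0.516, 0.545 and 0.608 in IPA, and 0.470, 0.520 and 0.443 in HFD, so that IPA overlapped HFD. The counts of mt-Nd4l over those of mt-Nd4 also overlapped between IPA (0.0674 to 0.0845) and HFD (0.0621 to 0.0678), while Trp (0.0712 to 0.0791) lay above HFD. With the counts of the copies added to the pool, mt-Nd5 made up 3.19% to 3.47% in Trp, 3.02% to 3.54% in IPA and 2.46% to 2.65% in HFD. mt-Nd4l, taken with its copy, made up 0.762% to 0.858% in Trp, 0.789% to 0.980% in IPA and 0.689% to 0.703% in HFD. As a share of the pool, HFD thus stayed below both other groups for each message.

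**Figure D4:**
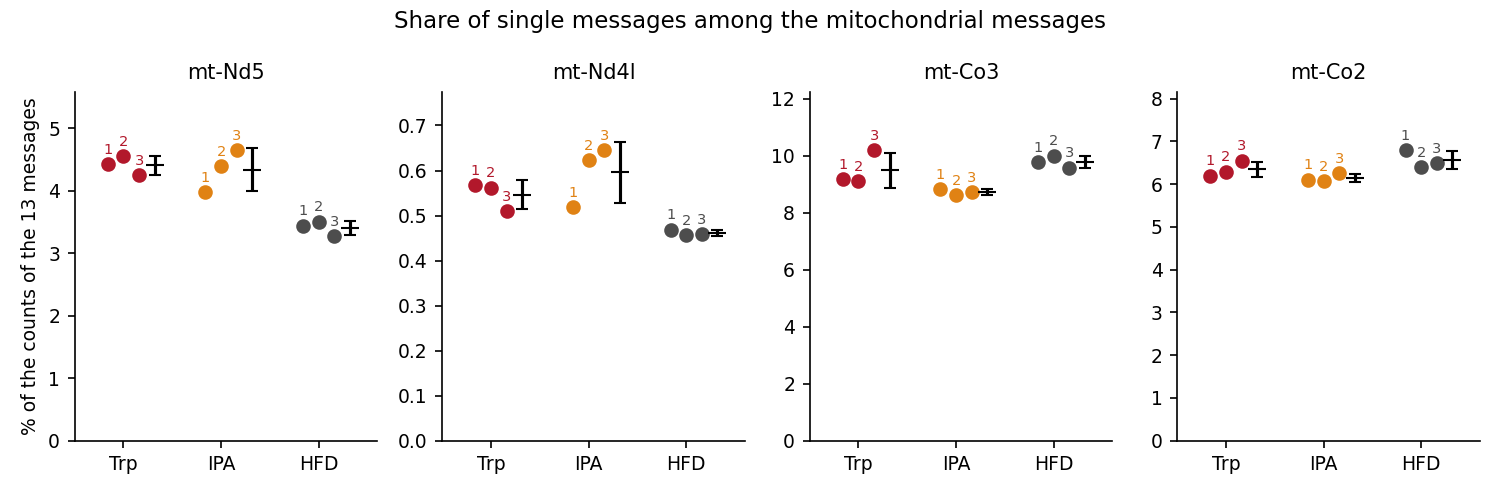
Share of mt-Nd5, mt-Nd4l, mt-Co3 and mt-Co2 in the counts of the 13 mitochondrial messages, in percent, for each library of the Trp, IPA and HFD groups, with the mean and SD of 3 libraries in black. For mt-Nd5 the HFD points (3.27% to 3.50%) lie below all Trp and IPA points, and for mt-Co3 the IPA points (8.62% to 8.83%) lie below all others.

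Among the 40 nuclear genes of complex I, the NADH dehydrogenase that feeds electrons into the chain, 38 were tested and none passed in any comparison. Their median log2 fold change was 0.03 in Trp and -0.03 in IPA relative to HFD, and 0.07 in Trp relative to IPA. The highest level was that of Ndufb9 at 220 FPKM. Ndufa2, an accessory subunit of the matrix arm, had 57.6, 50.7 and 65.5 CPM in Trp, 59.3, 55.4 and 55.0 CPM in IPA, and 81.1, 62.3 and 74.0 CPM in HFD. The IPA libraries were all below HFD, while Trp overlapped it. Its log2 fold change was -0.36 for IPA against HFD (SE 0.11, edgeR adjusted p = 0.345) and -0.32 for Trp against HFD (SE 0.11, edgeR adjusted p = 0.314).

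Ndufs1, an iron-sulphur core subunit of complex I, leaned the other way. It had 165, 152 and 144 CPM in Trp, 140, 147 and 161 CPM in IPA, and 124, 126 and 139 CPM in HFD. Both treated groups lay above HFD without overlap, narrowly so, with log2 fold changes of 0.24 for Trp and 0.20 for IPA (SE 0.09 each, edgeR adjusted p = 0.316 and 0.466). Its exons overlap those of Eef1b2 on the opposite strand, which held 65711 counts against 58249 for Ndufs1, and unstranded reads there cannot be told apart. Ndufb4c is annotated as a processed pseudogene, identical over all 390 bases to the accessory gene Ndufb4, which held 604% of its counts, so its reads cannot be told from those of Ndufb4. It had 15.0, 11.7 and 13.1 CPM in Trp, 9.36, 12.0 and 13.5 CPM in IPA, and 10.3, 9.16 and 9.93 CPM in HFD. Its log2 fold change was 0.44 for Trp against HFD (SE 0.15, edgeR adjusted p = 0.282).

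Ndufs6b is annotated as a processed pseudogene, 96.55% identical over 348 bases to the zinc-site subunit gene Ndufs6. Ndufs6 held 1407 to 2163 counts by library, and the part of its reads in the Ndufs6b counts was not tested. At low counts, Ndufs6b had the lowest log2 fold change of complex I for Trp in both comparisons. It had 16, 7 and 20 counts in Trp, 24, 22 and 24 in IPA, and 27, 24 and 13 in HFD. Trp lay below IPA without overlap (log2 fold change -0.93, SE 0.41, edgeR adjusted p = 0.987) and overlapped HFD.

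Complex II, succinate dehydrogenase, links the chain to the tricarboxylic acid cycle and differed little. Sdha, the flavoprotein, averaged 132 FPKM, Sdhb, the iron-sulphur subunit, 89.9 FPKM, and the membrane anchors Sdhd and Sdhc 62.2 and 29.7 FPKM. Sdhb had 114, 117 and 122 CPM in Trp, 111, 119 and 114 CPM in IPA, and 111, 106 and 107 CPM in HFD. All Trp libraries were above HFD, with a log2 fold change of 0.12 (SE 0.07, 95% interval -0.04 to 0.28, edgeR adjusted p = 0.577).

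In complex III, the cytochrome bc1 complex, Uqcrc2 had the smallest p of any member for Trp against HFD. It encodes a core protein on the matrix side that holds no redox centre. Its CPM were 221, 226 and 218 in Trp, 201, 211 and 227 in IPA, and 173, 173 and 197 in HFD. Both treated groups were above HFD without overlap. The log2 fold change was 0.29 for Trp against HFD (SE 0.08, 95% interval 0.11 to 0.47, unadjusted p = 0.0042, edgeR adjusted p = 0.219) and 0.24 for IPA against HFD (SE 0.08, edgeR adjusted p = 0.390). Without HFD 3 the edgeR adjusted p for Trp was 0.0449, where 323 genes were called against 64 with all libraries. Over the 20 settings run, by edgeR, DESeq2 or limma-trend, the adjusted p of Uqcrc2 for Trp against HFD was 0.0449 to 0.678.

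The other complex III genes did not share that pattern. Uqcr11, a small accessory subunit, had 70.3, 62.2 and 80.6 CPM in Trp, 68.0, 66.2 and 69.8 CPM in IPA, and 99.9, 71.1 and 80.3 CPM in HFD. Its log2 fold change for IPA against HFD was -0.30 (SE 0.12, edgeR adjusted p = 0.451), and its near-identical copies held 5.83% of its counts. Uqcrh, the hinge subunit next to cytochrome c1, was the highest at 319 FPKM. Uqcr10 had the smallest p of complex III between Trp and IPA (log2 fold change 0.10, SE 0.10).

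Complex IV, cytochrome c oxidase, has subunits with several isoforms, and the widely expressed ones dominated in these libraries. Cox4i1 averaged 789 FPKM, the highest of all nuclear members, against 1.82 FPKM for Cox4i2, the isoform known from lung and hypoxic cells. Cox6a1 averaged 397 FPKM and its heart and muscle form Cox6a2 7.91 FPKM. Cox7a2 averaged 255 FPKM and the muscle form Cox7a1 2.17 FPKM, and Cox8a 508 FPKM with the muscle form Cox8b at 1.20 FPKM. The testis forms Cox6b2 and Cox7b2 averaged 2.89 and 0.31 FPKM, beside 232 FPKM for Cox6b1 and 162 FPKM for Cox7b. Striated muscle markers were low, with 7 of 10 tested and a mean log2 CPM of -0.63 to 0.06 over libraries. Acta1 was the highest of them at 4.67 to 10.5 CPM, and Ckm had at most 6 counts in a library.

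Within complex IV, Cox8a, a small membrane subunit, had 299, 271 and 333 CPM in Trp, 298, 295 and 267 CPM in IPA, and 380, 318 and 324 CPM in HFD. IPA was below HFD without overlap (log2 fold change -0.25, SE 0.10, edgeR adjusted p = 0.449), and Trp overlapped HFD. Cox7b, another small subunit, had 202, 182 and 200 CPM in Trp, 160, 175 and 180 CPM in IPA, and 166, 145 and 184 CPM in HFD. Its log2 fold change was 0.24 for Trp against HFD (SE 0.10, edgeR adjusted p = 0.378), with 1 HFD library inside the Trp range. Cox4i2 had 1.73, 1.60 and 2.12 CPM in Trp, 1.15, 1.58 and 1.30 CPM in IPA, and 1.41, 1.35 and 1.12 CPM in HFD. Trp lay above both other groups, with log2 fold changes of 0.49 against HFD (SE 0.23) and 0.44 against IPA (SE 0.23), and edgeR adjusted p of 0.457 and 0.987. Cox7a2l, which helps join complexes III and IV, had a log2 fold change of -0.17 for Trp and -0.21 for IPA against HFD (SE 0.10 each).

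Complex V carried the highest nuclear median. Atp5b, the catalytic beta subunit, averaged 604 FPKM. Atp5k, subunit e at the dimer interface, had 25.8, 20.0 and 23.7 CPM in Trp, 29.2, 24.1 and 28.2 CPM in IPA, and 36.5, 23.8 and 32.8 CPM in HFD. For Trp against HFD it had the lowest log2 fold change of complex V, -0.42 (SE 0.15, edgeR adjusted p = 0.319), although HFD 2 lay within the Trp range. Atp5e, the epsilon subunit of the central stalk, had 60.8, 59.8 and 76.4 CPM in Trp, 61.5, 60.6 and 53.9 CPM in IPA, and 84.5, 62.6 and 74.5 CPM in HFD. IPA was below HFD without overlap (log2 fold change -0.33, SE 0.12, edgeR adjusted p = 0.407).

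The c subunit of the rotor ring is made from 3 genes that encode the same mature protein. Of their summed FPKM, Atp5g3 held 64.0%, 64.4% and 63.7% in Trp, 63.5%, 62.9% and 63.1% in IPA, and 60.8%, 60.6% and 62.9% in HFD. Atp5g2 held 17.8%, 18.6% and 18.0% in Trp, 19.9%, 20.0% and 19.4% in IPA, and 19.5%, 21.3% and 18.7% in HFD. Atp5g2 was lower in Trp than in both other groups, and Atp5g3 was higher in Trp than in both. A near-identical copy of Atp5g1 held 18.6% of that gene's counts.

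**Figure D5:**
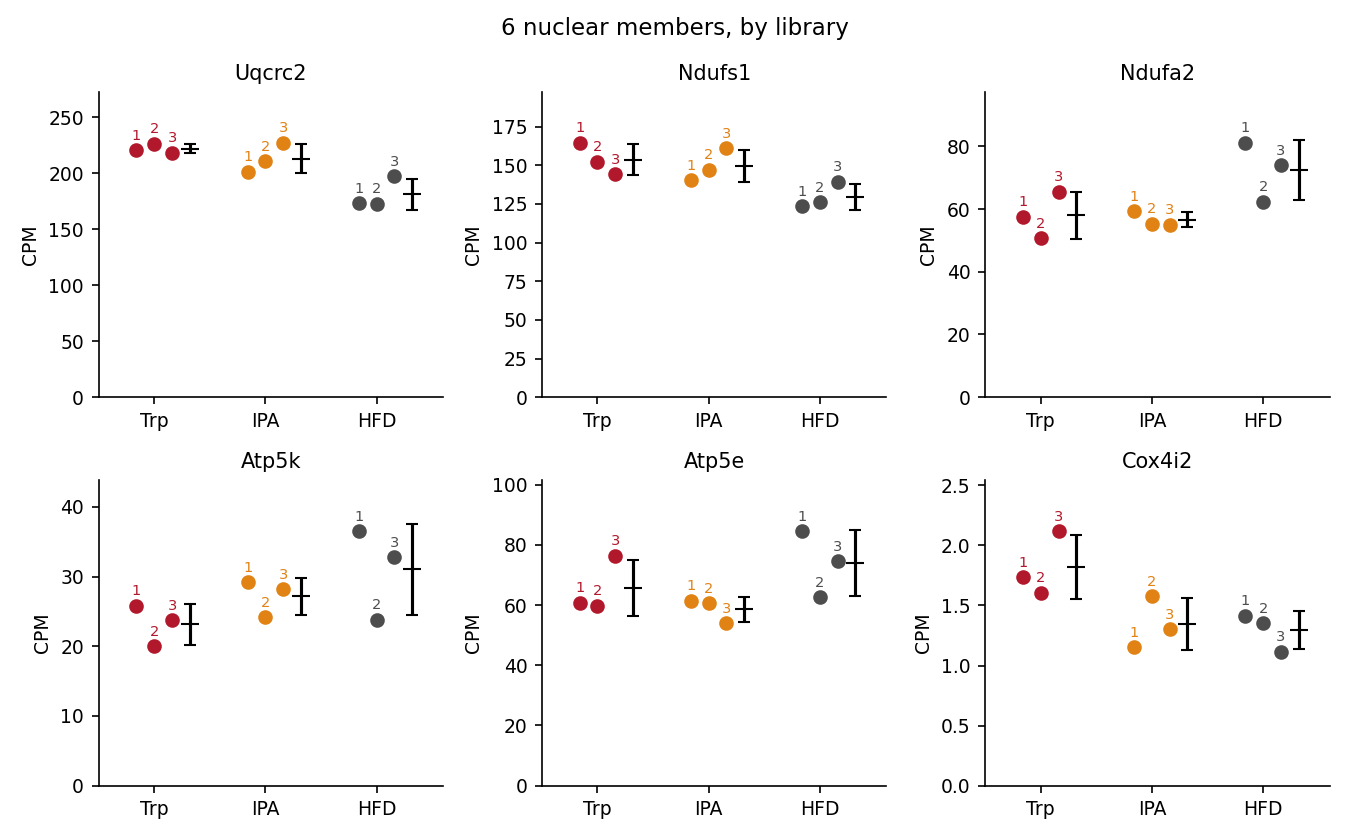
CPM of 6 nuclear members in each library of the Trp, IPA and HFD groups, with the mean and SD of 3 libraries in black. Uqcrc2 and Ndufs1 lie above HFD in both treated groups (Uqcrc2 at 201 to 227 CPM against 173 to 197), while Ndufa2 and Atp5e lie below HFD in IPA. None passed edgeR's test.

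The per-gene 95% intervals bound what these groups of 3 could hide. For every mitochondrial message and all 3 comparisons the interval lay inside a 2-fold change in either direction. The same held for 81 of 86 nuclear members when Trp was set against HFD, 83 when IPA was, and 81 between Trp and IPA. The exceptions were low-count isoforms and copies, among them Cox7b2, Cox8b and Ndufs6b in all 3 comparisons. At a 1.5-fold bound the interval lay inside for 11, 10 and 5 of the 13 mitochondrial messages in that order of comparisons, and for 77, 78 and 78 nuclear members. These intervals are not adjusted for the number of genes.

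Gene length went with the nuclear values in the comparisons with HFD. Among the 80 of 86 tested nuclear members with a coding length (93%), the 40 shorter ones, split at the median of 405 bases, had a median log2 fold change of -0.03 for Trp and -0.07 for IPA against HFD. The 40 longer ones had 0.04 and -0.01. Across all genes split at that length, the short ones had medians of -0.04 and -0.07 and the long ones 0.00 in both comparisons. Of the 40 shorter members, 16 lay above 0 for Trp and 12 for IPA, against 25 and 19 of the 40 longer ones. Ndufa2, Atp5e, Atp5k, Cox8a and Uqcr11, which lay below 0 in both comparisons, are among the shorter members, as are Cox7b and Ndufc2, which lay above 0 in both, at 0.24 and 0.25 for Trp. The part of length, or of RNA quality, in these values was not tested.

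Genes that build and supply the chain were examined as lists, and none of their members passed edgeR's test in any comparison. The unadjusted limit of 0.05 was met, in either direction, by 11.3% of all genes when Trp was compared with HFD, 10.4% when IPA was, and 4.49% between Trp and IPA, and the counts below are read against these. In Trp against HFD, 6 of 32 genes of mitochondrial DNA and RNA maintenance were higher and none lower at an unadjusted p under 0.05, with a list median of 0.11. The smallest p was that of Lrpprc, which stabilises mitochondrial messages, at 47.9, 51.5 and 48.3 CPM in Trp and 37.7, 36.4 and 38.9 CPM in HFD (log2 fold change 0.39, SE 0.10, edgeR adjusted p = 0.180, DESeq2 adjusted p = 0.0381). Tefm, Mterf3, Mterf4, Pnpt1 and Fastkd1 were the other 5, at 0.27 to 0.35. In IPA against HFD 2 genes were higher at that limit, Tfb2m, a transcription factor of mitochondrial DNA (0.27, SE 0.11), and Trmt10c, a subunit of mitochondrial RNase P (0.29, SE 0.12). Tfam, which packages mitochondrial DNA, had 0.01 for Trp and 0.05 for IPA. Between Trp and IPA, Polg2, the accessory subunit of the mitochondrial DNA polymerase, alone met the limit, at 0.65 (SE 0.28, edgeR adjusted p = 0.987) and 1.06 to 2.47 CPM over these libraries.

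Of 18 genes of the tricarboxylic acid cycle, 3 were higher and none lower at that limit in Trp, and 1 was higher in IPA, the last a smaller share than among all genes. Idh2, the mitochondrial NADP-dependent isocitrate dehydrogenase, had 41.2, 41.6 and 32.6 CPM in Trp, 32.0, 37.7 and 29.5 CPM in IPA, and 28.7, 25.1 and 27.7 CPM in HFD. Both treated groups were above HFD, with log2 fold changes of 0.50 (SE 0.12) for Trp and 0.28 (SE 0.12) for IPA and edgeR adjusted p of 0.133 and 0.463. With DESeq2 the adjusted p for Trp was 0.0141. Suclg1 and Fh1 were the other genes in Trp, at 0.19 and 0.23.

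Assembly factors showed single genes rather than whole lists. Of 21 for complex IV, 2 were higher at that limit in Trp against HFD, Taco1, a translational activator of mt-Co1 (0.44, SE 0.13, edgeR adjusted p = 0.230), and Sco2, a copper carrier (0.79, SE 0.25), a share no larger than among all genes. Taco1 was also the only one to meet it between Trp and IPA (0.31). Sco2 was at a low level, with 1.71, 2.49 and 2.30 CPM in Trp and 1.07, 1.47 and 1.21 CPM in HFD. Of 4 for complex II, Sdhaf1 was lower, at -0.40 in IPA (SE 0.12, edgeR adjusted p = 0.332) and -0.27 in Trp (SE 0.12). None of 18 factors for complex I, 6 for complex III or 5 for complex V met the unadjusted limit in any comparison. Of 15 electron carriers and subunits with other names, Coq10b alone did, in Trp (-0.45, SE 0.17). Cycs, cytochrome c, had 0.02 for Trp and 0.05 for IPA, Cyc1, the catalytic subunit cytochrome c1 of complex III, -0.08 and -0.15, and Ndufab1, the acyl carrier subunit of complex I, 0.07 and -0.05.

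Among 17 regulators of mitochondrial biogenesis, the coactivator Ppargc1a had a log2 fold change of -0.12 for Trp and 0.04 for IPA against HFD (SE 0.12 each), and the factor Nrf1 had 0.19 and 0.07 (SE 0.12 each). At the unadjusted limit Prkaa2 was lower in Trp (-0.21) and Esrrg higher in IPA (0.37). Between Trp and IPA the list median was -0.12, the gene with the smallest p was Nrip1 (-0.29, edgeR adjusted p = 0.987), and no gene met that limit. The NRF1 motif GCGCATGCG, searched on both strands of 250 bases before to 50 after the start in RefSeq promoters (GRCm38.p6), was found in 8 of the 69 nuclear members with a promoter entry (11.6%), among them Uqcr11, Atp5k, Atp5l and Uqcrc1. It was found in 1.95% of all 27025 genes with a promoter entry. A GABP core, ACTTCCGG, was found in 5 (7.25%), against 4.31% of all. A match of letters does not show that a factor binds.

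Markers of other cell types moved with some groups, and their part in the values above was not tested. All 10 microglia markers lay above 0 in Trp against HFD. Their mean log2 CPM was 4.13 to 4.54 in Trp, 3.77 to 3.86 in IPA and 3.61 to 3.79 in HFD. Of 9 tested blood cell markers all lay below 0 in Trp and 8 in IPA, with means of 4.54 to 5.12 in Trp, 4.51 to 5.09 in IPA and 5.45 to 6.68 in HFD. All 10 striatal markers lay above 0 in both comparisons with HFD, with means of 6.73 to 7.32 in Trp, 7.25 to 7.68 in IPA and 5.45 to 7.29 in HFD. Choroid plexus markers, 10 in all, also lay above 0 in both. Their means were 0.07 (in Trp 3) to 4.33 in Trp, 2.45 to 4.10 in IPA and 1.39 to 3.50 in HFD. Of 10 endothelial and mural markers, 7 lay below 0 in Trp and 9 in IPA. The median log2 fold change of the hippocampal markers was -0.05 for Trp and -0.75 for IPA against HFD. With the striatal mean as a covariate no member passed in any comparison.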

How the data were processed

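Oligo(dT)-captured RNA of 9 mice was sequenced, per the labels' protocols, with no strand marking described. Per the submitters' processing notes, StringTie 2.1.3b and the mouse build mm10 were used. No source used here names the aligner, the counter, the strand option or the test behind the deposited q-values. Per the file headers, the authors deposited counts per gene and library, which were whole numbers, and FPKM, a level per length and depth. The authors' table also holds their log2 fold changes, p-values and q-values over HFD, and their called genes all changed by more than 2-fold. Columns were matched to samples by the labels' names, which left 0 over. Total counts were 40621084 to 50938746 per library. A floor of 3 counts corresponds to 0.0589 to 0.0739 CPM, for counting error only.

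Counts were fitted with edgeR 4.0.16 in R 4.3.3 (filterByExpr with a minimum count of 10, TMM, quasi-likelihood with robust fitting, 1 mean per group over all 9 libraries, no covariate), with Benjamini-Hochberg adjustment over 18690 genes and two-sided tests. Alternatives used DESeq2 1.42.0 and limma-trend of limma 3.58.1 on log2 FPKM. For 3 against 3 libraries the smallest p of an exact permutation test is 0.1. Differences of shares and ratios are descriptions. Log2 CPM used a prior count of 2. Copies were found with BLAST 2.17.0 among GENCODE M21 transcripts, at an identity of at least 95% over at least 50% of the member or the copy, and coding lengths came from the same release. The positions of all 13 mitochondrial genes were the same in the table and that release. Those of nuclear genes are not printed, since their build is not settled.

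The members, the other gene lists and the tests were chosen with earlier results of these data known. The genes named are all 13 mitochondrial messages, the nuclear member with the highest FPKM per complex, the one with the smallest p per complex and comparison, the highest and lowest fold changes, the isoform groups, and genes with the smallest p of the other lists. Ndufs1, Uqcr11 and the genes listed at an unadjusted p under 0.05 were chosen after their values were seen. The procedure was run on simulated counts with each gene drawn independently. That run does not measure its power for the changes described here. Plots used matplotlib 3.10.9 (Python 3.11.15).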

Additional observations from a re-analysis of the deposited data

How the results depend on the processing

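Other settings were run for 55 genes, among them every gene given with a log2 fold change, in 3 comparisons each. Of 3294 results of a gene under a setting, 3211 kept direction and call, 79 changed sign without a call and 4 passed where edgeR with all libraries did not. These were, for Trp against HFD, Uqcrc2 with DESeq2 and without HFD 3, and Lrpprc and Idh2 with DESeq2 (adjusted p = 0.0381 and 0.0141). The members called in Trp against HFD were 1 with DESeq2 and 0 to 1 leaving out single libraries, with the 1 reached without HFD 3. Over all genes, DESeq2 called 1.78%, and edgeR called 323 genes without HFD 3 against 64 with all libraries. In both other comparisons 0 members were called under every setting run. The median log2 fold change of the mitochondrial messages for IPA against HFD was 0.39 with the striatal marker covariate. That of the nuclear members for Trp against IPA was 0.14 by limma-trend on log2 FPKM at a pseudocount of 0.5 or 0.1 and without a filter (0.140, 0.140 and 0.139), where the median of all genes also shifted, by 0.08, 0.09 and 0.07. The share of the mitochondrial messages was 16.6%, 18.9% and 17.8% of summed FPKM in Trp, IPA and HFD, and 10.5%, 12.1% and 11.5% of counts with the chromosome 1 copies added, which was chosen after seeing the data. The share of the nuclear members was 2.82%, 2.59% and 2.71% of summed FPKM, and 1.41%, 1.34% and 1.38% of the total without mitochondrial genes. The units and totals differ by construction in these, and for the other settings the cause was not tested.

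Leaving out single libraries, the mitochondrial median was -0.29 to -0.02 for Trp against HFD, 0.03 to 0.28 for IPA against HFD and -0.45 to -0.17 between Trp and IPA. The nuclear median was -0.04 to 0.03, -0.09 to 0.0005 and 0.01 to 0.09 in the same comparisons, so its sign in the first 2 depended on a library. The log2 ratio of both sets was -0.30 to -0.04, 0.02 to 0.21 and -0.43 to -0.17. The shares of counts moved between 7.41% and 8.51% in Trp, 8.65% and 9.59% in IPA and 8.13% and 9.15% in HFD for the mitochondrial messages, and between 1.25% and 1.32%, 1.18% and 1.22%, and 1.22% and 1.28% for the nuclear members.

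Libraries with the same replicate number did not deviate together over all genes (r of -0.196 to 0.048 over 9 pairs), and the main fit used no pairing. Such an r cannot show whether the numbers mark a shared handling, which the labels do not state. With the replicate number as a block, 0 members were called in each comparison, and the mitochondrial medians were -0.15 in Trp and 0.13 in IPA relative to HFD, and -0.30 in Trp relative to IPA.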

Other observations

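The table also lists 22 mitochondrial transfer RNA genes, which lie between the messages on the same long transcripts and are mostly too short for this protocol once released. Their counts came to 0.515%, 0.447% and 0.481% of those of the 13 messages in Trp, 0.502%, 0.464% and 0.448% in IPA, and 0.389%, 0.420% and 0.465% in HFD. HFD 3 lay inside the range of both other groups. mt-Ts1, which lies on the opposite strand at the end of mt-Co1, held 35.4% of all transfer RNA counts, and its exon overlaps that of mt-Co1. mt-Te, between mt-Nd6 and mt-Cytb, held 15.7%.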
